A study of Equus caballus with 93 samples.

Results

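The cells analysed here came from the synovial fluid of joints treated with iPAAG, an injectable polyacrylamide hydrogel, sampled before surgery (week 0) and 8 weeks after it. They were chosen by their titles: 8 iPAAG libraries at week 0 and 7 at week 8, that is 15 of the 93 libraries of the series. Of these 15, 13 were used in the main comparison, because 2 had an SD of log2 CPM over all genes below 2 (log2 CPM is the logarithm of a gene's reads relative to library size). The SDs on either side of that limit were 1.65 (horse 14, week 0) and 2.82 (horse 8, week 0), and the other library left out was horse 3 at week 8, at 1.48. These 2 libraries had 3 and 10 genes without a read, and horse 8 at week 0, which was kept, had 5. Without libraries of SD below 3, which leaves out horse 8 at week 0 as well, the count of changed genes given below was 4775 in place of 4518. The 6 horses with both libraries above the limit were horses 5, 6, 7, 8, 12 and 17, and horse 3 contributed its week 0 library alone.

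All 16 horses of the study were 2 to 5 years old (7 mares and 9 geldings) and had an osteochondral fragment made surgically in 1 middle carpal joint, an experimental model of osteoarthritis in which a loose chip of cartilage and bone is left in the joint. The operated joint received 2 mL of 2.5% iPAAG (8 horses) or 2 mL of saline (Control, 8 horses) at week 2, and every horse was exercised 5 days a week from week 2 to week 10. Total RNA of the pelleted fluid cells was sequenced at weeks 0, 2, 4, 6, 8 and 10. Between weeks 0 and 8 the surgery, the gel, the exercise and the elapsed time all changed, and within the iPAAG arm their parts cannot be told apart.

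Synovial fluid lubricates the joint and normally holds few cells, mostly macrophages and lymphocytes with some cells shed from the synovial lining. After joint injury the fluid takes up more leukocytes and the lining cells make cytokines, proteases and matrix. Polyacrylamide hydrogel is not degraded in the joint and is known to be taken into the synovial membrane. In a pellet of mixed cells, fewer cells of a type and less RNA per cell cannot be told apart. The genes are named by Ensembl horse identifiers, which the table does not pair with symbols, and the gene table used here, from another horse assembly, matched 0 of 15838. The 21 lists of pathway and cell type genes were therefore not tested, the labelled cell type was not checked against markers, and genes are described below by identifier, by level and by direction.

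The libraries of weeks 0 and 8 were compared first. Genes without a read and the median log2 CPM were described and not tested. In the 6 horses with both libraries in the comparison, reads in genes averaged 30062400 ± 6055420 at week 0 and 25670000 ± 6051200 at week 8 (SD, n = 6). The number of genes without a read was 435, 552, 262, 5, 668 and 429 at week 0 in horses 5, 6, 7, 8, 12 and 17. At week 8 it was 744, 969, 106, 212, 1170 and 804 in the same horses, which is higher in 5 of 6. The 100 genes with the most reads held 24.2% ± 1.66 of reads at week 0 and 27.9% ± 1.52 at week 8 (SD, n = 6), a rise of 3.74 percentage points seen in 5 of 6 horses that did not pass a two-sided exact paired permutation test (p = 0.0625, adjusted p = 0.0938 over 3 library values; the smallest p this design allows is 0.0312). With horse 3 included the mean difference was 1.98 points (exact permutation p = 0.328, adjusted p = 0.492, n = 7). Reads in genes and library SD did not pass the test either, with or without horse 3 (adjusted p from 0.0938 to 1, exact permutation tests). In the 6 horses library SD averaged 3.26 ± 0.25 at week 0 and 3.58 ± 0.32 at week 8 (SD, n = 6). It was higher at week 8 in 5 of 6 (exact permutation p = 0.0625). With horse 3 included the means were 3.27 and 3.28 (n = 7). With 6 horses no single value could pass after adjustment on its own. The median log2 CPM of a library averaged 4.10 ± 0.07 at week 0 and 3.91 ± 0.06 at week 8 (SD, n = 6) and was lower at week 8 in 6 of 6 horses, so a typical gene sat slightly lower at week 8 under the deposited scaling.

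**Figure D1:**
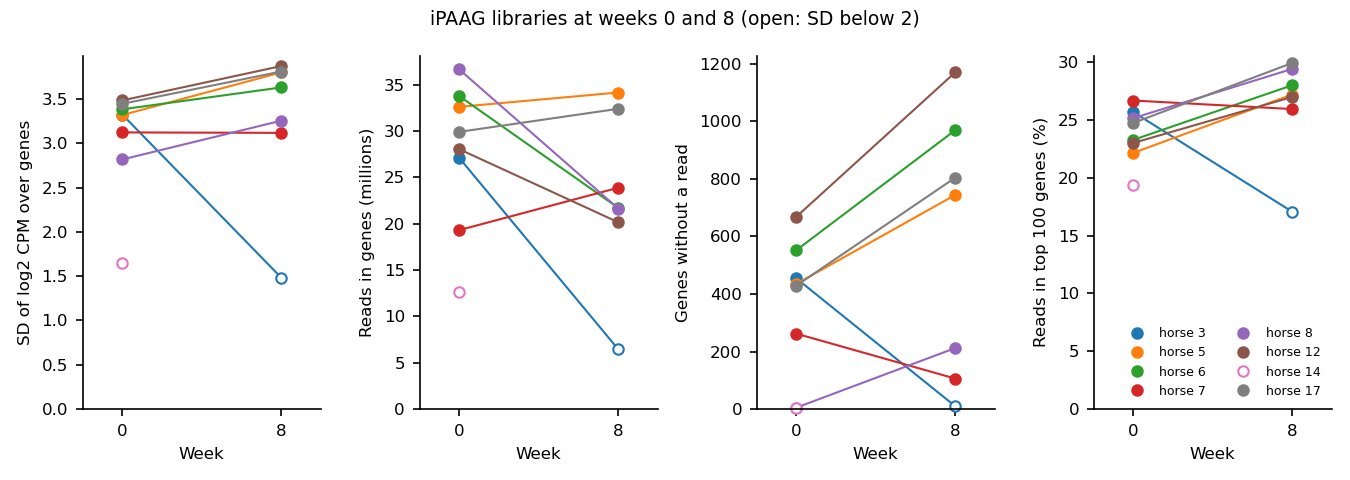
Library SD of log2 CPM, reads in genes, genes without a read and the share of reads in the 100 genes with most reads at weeks 0 and 8, with 1 line per iPAAG horse. Open circles are libraries of SD below 2: horse 14 at week 0 and horse 3 at week 8, which has 10 genes without a read while horse 12 has 1170.

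Between week 0 and week 8, 4518 of the 15838 genes (28.5%) changed in the iPAAG joints by limma at an adjusted p below 0.05. Of these, 1670 genes (10.5%) were higher at week 8 and 2848 (18.0%) lower. Falls of 2-fold or more, at least 1 on the log2 scale, outnumbered such rises. They numbered 1540 among the lower genes, against 385 rises among the higher ones. Of these, 352 lower and 253 higher genes had a mean log2 CPM over both weeks of 4 or more. Over all levels, the counts at 8-fold or more were 107 lower and 33 higher, and at 16-fold or more they were 7 lower and 13 higher. The median change was 0.65 over the higher genes, -1.09 over the lower genes and -0.16 over all genes. Centring each library on its median, which moved the median of all genes from -0.16 to 0.03, turned the split round, with 2870 genes higher and 1836 lower. With quantile normalisation 1838 were higher and 1974 lower. With all libraries of the series, including those of SD below 2, 1263 genes (7.97%) were called, 275 higher and 988 lower. Of these, 275 and 987 were also called in the same direction in the main comparison.

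Rises and falls were spread unevenly over levels of expression. Among the 3022 genes whose mean log2 CPM over both weeks was below 0, 359 fell and 35 rose, and the median change was -0.92. Among the 751 genes at 8 or more, 242 rose and 46 fell, with a median change of 0.27. Among the 7895 genes at 4 or more, 1463 rose and 1342 fell, with centred libraries 2516 rose and 703 fell, and with all libraries 187 rose and 634 fell. With all libraries, 56 rose and 124 fell at 6 to 8, and 16 rose and 8 fell at 8 or more. The decline of the low genes moved together with more genes without a read and a larger library SD at week 8, given above. The part of these in the result was not tested. In Control joints the median change of the genes below 0 was 0.98. That value became 0.09 when libraries of SD below 3 were also left out, while it was -0.75 in iPAAG joints. A few reads decide the log2 value of such genes. The genes described by value below average 1 log2 CPM or more over both weeks, a condition that a gene can meet through 1 week alone, as ENSECAG00000022525 does.

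**Figure D2:**
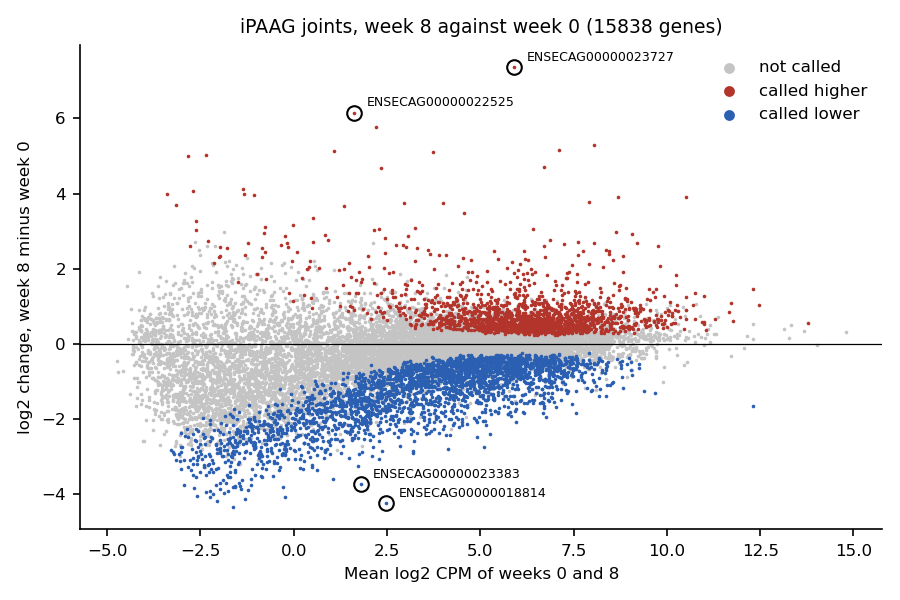
Fitted log2 change from week 0 to week 8 in iPAAG joints against the mean log2 CPM of both weeks, 1 point per gene, with 1670 genes called higher in red, 2848 called lower in blue and the 4 genes described by value circled. Blue points extend furthest down at low levels and red points outnumber blue at 8 or more.

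Among called genes averaging 1 log2 CPM or more and higher in every horse, the largest rise was that of ENSECAG00000023727. Its log2 CPM at week 0 was 3.53, 3.41, 0.37, 1.46, 1.86, 2.07 and 2.92 in horses 3, 5, 6, 7, 8, 12 and 17. At week 8 it was 11.03, 9.49, 10.08, 10.35, 7.27 and 9.17 in horses 5, 6, 7, 8, 12 and 17, and every week 8 library was above every week 0 library. It rose by 7.36 ± 0.93 on the log2 scale (SE, limma adjusted p = 1.14e-07), about 164-fold, and in 6 of 6 horses. The gene had between 38 and 332 reads at week 0 and between 2538 and 56305 at week 8, so the 0.5 reads added to each count bear little on this rise. The library of horse 3 left out at week 8 had a value of 9.42, within the range of the others.

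ENSECAG00000022525 had the next largest rise among genes meeting the same conditions. It had log2 CPM values of 1.81, -0.92, -5.90, -1.05, -0.62, -2.80 and -0.47 at week 0 in the same order of horses, from 91 reads in horse 3 and 0 to 21 reads in the others. At week 8 the values were 6.10, 3.74, 4.09, 5.57, 4.97 and 3.53. The groups did not overlap, and the gene rose by 6.16 ± 0.93 (SE, limma adjusted p = 4.25e-06) in 6 of 6 horses, to between 252 and 1844 reads. Its week 0 values rest on few reads, and the size of this rise depends on the added 0.5 reads, because horse 6 had no read at week 0 and its change of 9.65 was the largest. With weights for low reads (voom) the adjusted p was 0.0491.

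Among called genes averaging 1 log2 CPM or more and lower in every horse, the largest fall was that of ENSECAG00000018814. Other genes among the 7 lower by 16-fold or more did not meet these conditions. The level of ENSECAG00000018814 differed widely between horses before surgery. Its log2 CPM at week 0 was 7.99, 3.94, 0.54, 4.37, 5.50, 3.45 and 6.49 in horses 3, 5, 6, 7, 8, 12 and 17. At week 8 it was -1.66, -0.38, 0.91, 1.04, -0.51 and 2.72 in horses 5, 6, 7, 8, 12 and 17. The groups overlapped only through horse 6, which was already low at week 0 and changed by -0.92, the smallest change of the 6. The gene fell by 4.23 on the log2 scale, with an SE of 1.15 (limma adjusted p = 0.00468), in 6 of 6 horses, and with voom weights it was no longer called (-4.14 ± 1.74, SE, adjusted p = 0.0639). In horse 3 the change was -4.21, to 3.78 in the week 8 library that was left out, whose values span a narrow range (SD 1.48).

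ENSECAG00000023383 fell with a smaller error. It was at 3.00, 4.00, 5.53, 3.16, 1.94, 5.06 and 2.96 log2 CPM at week 0 and at -0.32, 0.60, 1.83, 0.29, -0.95 and -1.88 at week 8, in the same orders of horses. The lowest week 0 library, horse 8, stood just above the highest week 8 library, horse 7. It fell by 3.74 with an SE of 0.62 (limma adjusted p = 2.29e-05), about 13.3-fold, in 6 of 6 horses. In horse 3 the change was 0.66, to 3.65 in the week 8 library that was left out. That library had an SD of 1.48, a median log2 CPM of 4.46 and 10 genes without a read. Its values span a narrow range, so it cannot show whether the gene fell in horse 3.

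**Figure D3:**
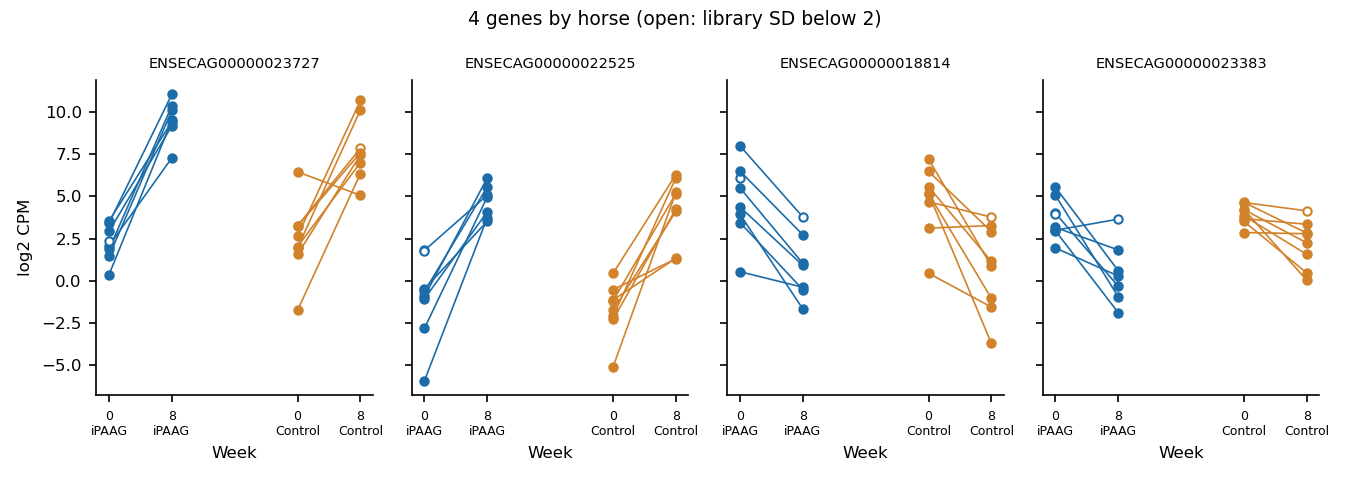
Log2 CPM of the 4 genes in each horse at weeks 0 and 8, in iPAAG joints (blue) and Control joints (orange), with open circles for libraries of SD below 2. ENSECAG00000023727 lies between 0.37 and 3.53 at week 0 and between 7.27 and 11.03 at week 8 in the filled iPAAG libraries.

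With these 4 genes included, 1146 genes met the conditions for a rise (called, averaging 1 log2 CPM or more, higher in every horse) and 1430 those for a fall. The third largest rise was 5.78, the tenth 3.91 and the twentieth 2.98. The third largest fall was -3.59, the tenth -2.90 and the twentieth -2.59. Over all levels, 1185 of the higher genes (71.0%) were higher in 6 of 6 horses, and 1716 of the lower genes (60.3%) were lower in 6 of 6. Of all 15838 genes, 1592 were higher and 2383 lower in 6 of 6 horses. The genes were called from these same horses, so their signs are partly fixed by the call. In 387 genes every week 8 library lay above every week 0 library, and in 451 genes every one lay below. That is 2.44% and 2.85% of all genes, beside the 10.5% called higher and 18.0% called lower.

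The 6 horses did not change equally. Among the 11854 genes averaging 1 log2 CPM or more, horses 12, 6 and 5 had 2915, 2532 and 2119 genes lower by at least 1 on the log2 scale, and horses 17, 8 and 7 had 1182, 1132 and 717. Rises of that size numbered 1626, 1345 and 1392 in horses 12, 6 and 5 and 638, 550 and 577 in horses 17, 8 and 7. Over these genes, which are not independent replicates, the changes of any pair of horses had a Pearson r between 0.14 and 0.80, with a median of 0.46 over 15 pairs. Over all 15838 genes r lay between 0.00025 and 0.60, with a median of 0.36, and the lowest values were those of horse 7. The count of called genes rested on horses 5, 6 and 12: without each of them it was 2645, 2767 and 2462, whereas without horse 7 it was 5117.

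The share of reads held by the called genes also differed between horses. The 2848 genes called lower held 17.6%, 20.8% and 19.7% of reads at week 0 in horses 5, 6 and 12, but 10.4%, 11.1%, 9.87% and 11.3% in horses 3, 7, 8 and 17. At week 8 they held 5.72%, 7.26%, 9.16%, 5.82%, 6.87% and 5.93% in horses 5, 6, 7, 8, 12 and 17. For these genes the shares of the kept libraries spanned a wider range at week 0 than at week 8. The 1670 genes called higher held between 16.1% and 25.6% of reads at week 0 and between 29.5% and 35.8% at week 8. These genes were called from the same libraries, so the shares describe the size of the change and are no further test of it. The count of called genes rested on horses 5, 6 and 12. Their larger week 0 shares of the lower genes, and the wider range at week 0, are therefore partly built into the list. In the week 8 library of horse 3 the higher genes held 25.7% and the lower genes 11.4% of reads. There, 25.7% of the 1670 genes were higher than in the horse's own week 0 library and 47.5% of the 2848 were lower, beside 50.02% and 49.98% of all genes. That library had an SD of 1.48, beside 3.32 at week 0. In a library of narrower spread high values sit lower and low values higher, and 1463 of the 1670 genes averaged 4 log2 CPM or more. These shares therefore cannot show which way the genes changed in horse 3.

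**Figure D4:**
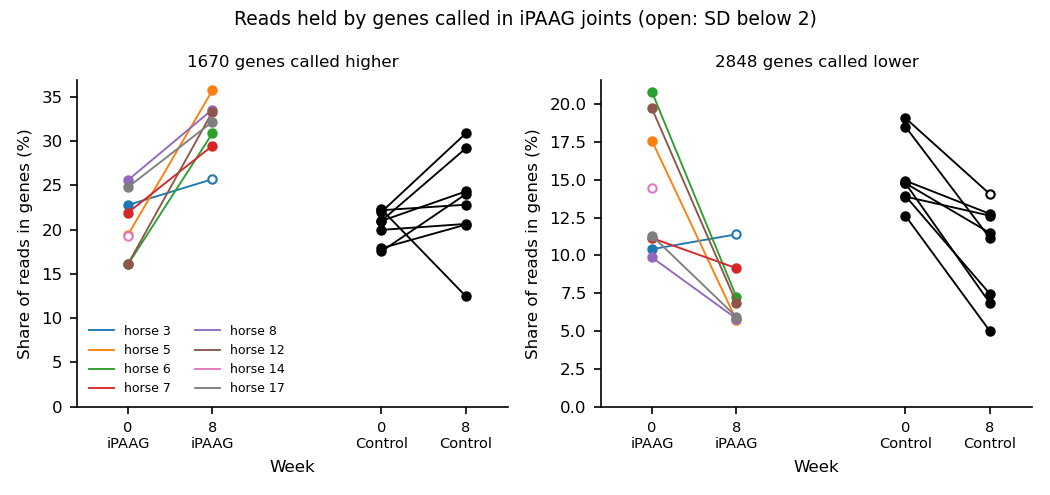
Share of the reads in genes held by the genes called higher (left) and lower (right) in iPAAG joints, with 1 line per horse, coloured for iPAAG and black for Control, and open circles for libraries of SD below 2. At week 0 the lower genes hold 17.6% to 20.8% of reads in horses 5, 6 and 12 and 9.87% to 11.3% in horses 3, 7, 8 and 17.

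Control joints, which share no library with the iPAAG comparison, changed in the same direction for most of these genes. In Control joints 1641 genes (10.4%) were called between the same weeks, 870 higher (5.49%) and 771 lower (4.87%), from 8 and 7 libraries above the SD limit. Centred on library medians the Control split was 1049 higher and 577 lower, and with quantile normalisation it was 690 and 1155. Of the genes higher in iPAAG joints, 93.3% had a positive Control change, against 56.0% of all genes, and their median Control change was 0.31. Of the genes lower in iPAAG joints, 89.1% had a negative Control change, against 44.0% of all genes, with a median of -0.42. The genes called higher in both arms numbered 419, which is 25.1% of the iPAAG list and 48.2% of the Control list. Those called lower in both numbered 566, or 19.9% of the iPAAG list and 73.4% of the Control list, and 0 genes were called in opposite directions. Both arms share a variance estimate per gene in the fit, which can by itself raise the overlap. The Control count was 885, 912 and 1093 without horses 11, 2 and 10, and in horse 11 at week 8 a single gene held 44.8% of the reads.

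The difference between the arms in the change from week 0 to week 8 was called for 0 genes by limma (0.0% of 15838; smallest adjusted p = 0.305), with 2058 genes at an unadjusted p below 0.05. Of those 2058, 513 had the more positive change in iPAAG joints and 1545 the more negative, under the deposited scaling. Over all genes the median difference was -0.20 under that scaling, -0.07 with centred libraries and 0.02 with quantile normalisation. With 0 genes called, the larger count of changed genes in iPAAG joints is not shown to be a difference between gel and saline. The genes described by value were picked for the largest iPAAG changes with the same sign in every iPAAG horse. No such condition was put on Control joints, so the arms cannot be compared fairly on the number of horses. The differences between arms given for these genes can be overstated. ENSECAG00000023727 rose by 5.30 ± 0.86 in Control joints (SE, limma adjusted p = 5.86e-05), and the difference between the arms was 2.05, with a 95% interval from -0.48 to 4.58 (adjusted p = 0.446). It was higher in 6 of 7 Control horses. ENSECAG00000022525 rose by 5.90 ± 0.86 (SE, limma adjusted p = 1.14e-05) in 7 of 7 Control horses, with a difference of 0.26 (95% interval -2.27 to 2.80). ENSECAG00000018814 changed by -4.45 ± 1.07 in Control joints (SE, limma adjusted p = 0.00514), lower in 6 of 7 horses, with a difference of 0.22 (95% interval -2.92 to 3.36). ENSECAG00000023383 changed by -2.06 ± 0.58 (SE, limma adjusted p = 0.016) in Control joints, lower in 7 of 7, and the arms differed by -1.68 (95% interval -3.38 to 0.02, adjusted p = 0.386). With voom weights the Control calls of ENSECAG00000022525 and ENSECAG00000018814 were lost through larger SEs, with changes of 5.84 ± 2.43 and -4.59 ± 1.81 (SE, adjusted p = 0.121 and 0.101). The Control call of ENSECAG00000023383 was lost with all libraries (adjusted p = 0.155) and without horse 10 or 11 (0.0563 and 0.0881).

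Week 8 was 1 of 5 times sampled after surgery, and the 4 genes took different courses to it. ENSECAG00000023727 averaged 2.23 ± 1.14 log2 CPM at week 0 (SD, n = 7), 4.11 ± 1.03 at week 2 (n = 7), 7.72 ± 1.65 at week 4 (n = 3), 10.59 ± 0.61 at week 6 (n = 4), 9.56 ± 1.30 at week 8 (n = 6) and 4.04 ± 0.98 at week 10 (n = 2) in iPAAG joints. Over all iPAAG libraries the means were 8.90 at week 6 (n = 8) and 9.54 at week 8 (n = 7), so which of these weeks is higher depends on the libraries left out. Its Control means at weeks 0 to 10 were 2.42, 4.94, 8.07, 8.24, 7.74 and 4.88. ENSECAG00000022525 averaged 4.21 ± 1.66 (SD, n = 7) at week 2 in iPAAG joints, 3.29 at week 4 (n = 3), 6.57 at week 6 (n = 4), 4.67 ± 1.04 (SD, n = 6) at week 8 and 1.88 at week 10 (n = 2).

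The 2 genes described above as falling also varied between the later weeks. ENSECAG00000018814 went from 4.61 ± 2.39 at week 0 to 0.83 ± 1.51 at week 2 (SD, n = 7 each), and averaged -1.97, 0.87, 0.35 and -0.31 at weeks 4, 6, 8 and 10. ENSECAG00000023383 went from 3.66 ± 1.27 to 1.48 ± 1.02 (SD, n = 7 each), and averaged 0.92, 2.41, -0.07 and 0.70 at weeks 4, 6, 8 and 10, so its week 8 mean was the lowest of the 6 weeks in iPAAG joints. At week 6 it was at 4.34 in horse 5, above that horse's week 0 value of 4.00, and horse 3 was also above its own week 0 value. Over all iPAAG libraries ENSECAG00000023383 averaged 3.70 at week 0 and 1.71, 2.84, 3.26, 0.46 and 3.29 at weeks 2 to 10, and ENSECAG00000018814 averaged 4.80 at week 0 and 1.17, 1.70, 2.54, 0.84 and 3.01. These means differ from those above through the libraries of SD below 2, whose values span a narrow range. The means over all libraries therefore cannot show whether the 2 genes recovered at weeks 4, 6 or 10. In Control joints the lowest mean of ENSECAG00000023383 was 1.07, at week 10. These courses were not tested here, and weeks 4, 6 and 10 rest on few iPAAG libraries.

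**Figure D5:**
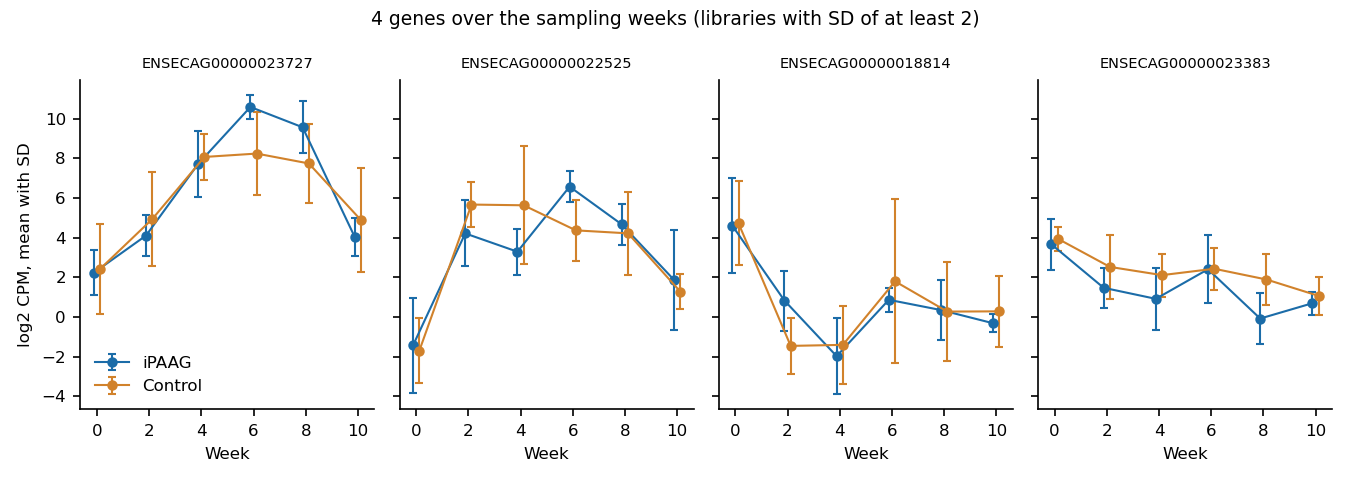
Mean log2 CPM with SD of the 4 genes at weeks 0 to 10 in iPAAG (blue) and Control (orange) joints, over libraries of SD of at least 2 (2 to 7 iPAAG and 6 to 8 Control libraries per week). ENSECAG00000023727 stands at 10.59 at week 6 and 9.56 at week 8 in iPAAG joints, and at 8.90 and 9.54 when all iPAAG libraries are counted.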

How the data were processed

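The authors deposited 1 table of log2 CPM values for 15838 genes in 93 libraries, made with voom per the file name. The submitters' processing notes name STAR 2.7.10b, EquCab3.0 and limma 3.62.2, and the labels' protocols name a stranded low-input total RNA kit. For read counting, use of strand, annotation release and gene filter the method is not given in the sources used, so overlapping genes and near-identical copies are uncertain. Each deposited log2 value is a whole number of reads, with 0.5 added, over a scaled library size: the smallest value gave the reads, whole within 0.05 reads for 100% of values. Reads in genes were 12597216 to 36660119 per library at week 0 and 6461198 to 34175789 at week 8 (iPAAG).

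Groups, horse numbers and weeks came from the titles. A limma 3.58.1 (R 4.3.3) model of 12 group means (arm and week) used the 70 libraries with an SD of at least 2, with horse as a random block (consensus correlation 0.0941), a variance trend and Benjamini-Hochberg adjustment over all genes at 0.05. Same-numbered libraries were taken as the same horse. Their deviations from the week means correlated by 0.12 (horse 7) to 0.52 (horse 8), beside a mean of -0.055 between different horses. Taking deviations from a mean pushes the value between different horses below 0, so it is no separate baseline. Horse 7 was the only horse whose best match was not its own number. No pair of iPAAG libraries of a week was alike (chi-square per degree of freedom of at least 70.0). Library values were tested by exact sign flips, and Python 3.11.15 (numpy 2.4.6, scipy 1.17.1, pandas 2.3.3, matplotlib 3.10.9) was used. Genes are named by a rule: the 2 largest rises and falls among genes called, averaging 1 log2 CPM or more and with 1 sign in every horse. The comparison, the limit on SD and the lists were chosen with earlier results of these data known. Alternatives were other library limits, blocks, scalings, filters, a prior of 2 reads, voom weights (added after seeing the data) and leaving out each horse.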

Additional observations from a re-analysis of the deposited data

Results flagged for a closer look

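With 32 groups of values checked, 4 single values stood far from the rest of their group. Chance would flag about 1 in 20 groups, but these flags are not independent and their number is not a test. The library SD of log2 CPM was 1.65 for iPAAG horse 14 at week 0, beside a group median of 3.32 (n = 8), and 1.48 for iPAAG horse 3 at week 8, beside a median of 3.63 (n = 7). These are the 2 libraries left out of the main comparison for their low SD, so these flags repeat that choice. The 100 genes with most reads held 17.1% of reads in the same week 8 library of horse 3, beside a median of 27.2% (n = 7). ENSECAG00000023727 changed by -1.39 from week 0 to week 8 in Control horse 1, whose week 0 value of 6.45 was the highest of that group, while the median of the 7 Control horses was 5.87.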

How the results depend on the processing

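The iPAAG count of 4518 genes became 1263 with all libraries and ranged from 2462 to 5117 without single horses. It was 4775 without libraries of SD below 3, 3564 with SD as a covariate, 4387 with only the iPAAG groups of weeks 0 and 8, 4280 when only genes averaging 1 log2 CPM or more were tested, 4545 with a prior of 2 reads and 4573 with voom weights. With all libraries 21.8% of the called genes were higher, with SD as a covariate 23.9%, with quantile normalisation 48.2% and with median centring 61.0%, beside 37.0%. For the replicate block, the count was 3964 with no block, 4455 with horse as a fixed block and 4902 with complete pairs, and the calls of the 4 named genes in iPAAG joints were kept in each. In iPAAG joints ENSECAG00000018814 lost its call with voom weights alone among 19 alternatives, and the other 3 kept theirs in 20 of 20. ENSECAG00000018814 was not among the 11818 genes averaging 1 log2 CPM or more over the 70 libraries, so that alternative did not test it. The Control count of 1641 became 469 with all libraries, 512 with only the Control groups of weeks 0 and 8 and 3041 with SD as a covariate, and ranged from 885 to 1893 without single horses. The count for the difference between arms was 0, or 1 without iPAAG horse 3 or Control horse 10. The 3 library values passed the test in no alternative. Most of those alternatives had 6 horses, where no single value could pass after adjustment on its own. A count model on the recovered reads was planned and not run. Depth limits genes of few reads, whose log2 change depends on the added 0.5 reads.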

Other observations

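Of the 100 genes with most reads, any pair of the 6 horses shared 53 to 86 at week 0 (median 65) and 68 to 86 at week 8 (median 79), over 15 pairs. Within a horse, weeks 0 and 8 shared 53 to 78 (median 65.5). In all 6 horses 47 genes were among the 100 at week 0 and 57 at week 8, and 39 were so at both weeks. There were 3 genes among the 100 in every horse at week 8 and in none of the 7 week 0 libraries, and 1 gene the other way round. Over the 11854 genes averaging 1 log2 CPM or more, the SD between the 6 horses had a median of 0.39 at week 0 and 0.33 at week 8, and 41.6% of the genes had the larger SD at week 8. These are descriptions of 6 horses, and no difference between the weeks was tested.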
